A study of Mus musculus with 6 samples.

Results

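The heat shock proteins and chaperones were taken as the rows whose gene symbol begins with Hspa, Hspb, Hspd, Hspe, Hsph or Hsp90, or is Hsf1, Hsf2, a numbered Dnaja, Dnajb, Dnajc, Cct, Bag or Pdia gene, Calr or Canx. This rule found 97 genes among the 43383 rows of the table, each with a RefSeq accession. It is a rule on names, so it also took Hspbp1 and Hspbap1, which encode proteins that bind heat shock proteins, and it did not take Tcp1, the founding subunit of the CCT ring. The rule uses no measured value, although it was chosen with earlier results of these data known.

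Astrocytes were sorted by FACS as GFP-positive cells from the somatosensory cortex of Aldh1l1-eGFP mice (males, 4 weeks old), a line in which the promoter of the astrocyte gene Aldh1l1 drives GFP. Upper-layer astrocytes (ULAs) came from layers II–IV and deep-layer astrocytes (DLAs) from layers V and VI of the same 3 brains, giving 3 libraries in each group. All animals carried the same reporter and the labels give no treatment, so the layer is the only difference of design between the groups. Dissection discarded layer I, the meninges, the corpus callosum and some tissue at the border of layers IV and V, so the astrocytes of those places are not represented.

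Chaperones bind proteins that are not yet folded or have lost their fold, and keep them from clumping until they reach their native state. HSP70 proteins do this in cycles driven by ATP, which J-domain proteins (the DNAJ families) start and nucleotide exchange factors (BAG and HSP110 proteins) reset, while HSP90, the CCT ring and the mitochondrial HSP60 ring act on narrower sets of clients. Under stress that damages proteins, the transcription factor HSF1 raises the cytosolic and mitochondrial chaperones, and a separate programme, the unfolded protein response, raises those of the endoplasmic reticulum (ER). Astrocytes secrete and display many membrane proteins, all of which fold in the ER.

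RPKM values divide the reads on an mRNA by its length and by the depth of the library, so they can be compared between genes. Depth, read back from the steps between low values, lay between 24.5 and 26.7 M reads in the ULA libraries and between 19.7 and 29.6 M in the DLA libraries. The summed RPKM of 10 astrocyte markers was 10750 to 11437 in ULAs and 9821 to 10795 in DLAs, whereas 9 neuronal markers summed to at most 7.88, 8 microglial markers to at most 14.7 and 3 markers of oligodendrocyte precursors to at most 0.93. Of the astrocyte markers Gfap alone passed the test described below, being higher in DLAs. Markers of several other cell types moved with the layer. The 10 oligodendrocyte markers summed, for brains 1, 2 and 3, to 90.2, 87.7 and 181 RPKM in ULAs and to 179, 206 and 285 RPKM in DLAs, and 7 of the 9 that could be tested were higher in DLAs. Red blood cell markers, all 3 of which were higher in DLAs, summed to at most 0.98 RPKM in ULAs and to 14.5, 14.8 and 74.8 RPKM in DLAs. The 5 mural cell markers summed to 15.1 to 21.9 RPKM in ULAs and 11.4 to 18.0 RPKM in DLAs, and 1 of the 2 that could be tested, Rgs5, was higher in ULAs (limma adjusted p = 0.0455).

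The members covered a wide range of expression, though not its top. Of the 97, 5 had a mean of at least 100 RPKM, 10 lay between 50 and 100, 36 between 10 and 50, 27 between 1 and 10, and 19 under 1. Of the last group, 3 (Dnajb8, Dnajc22 and Dnajc5g) were listed at 0 in all 6 libraries, where a count of 0 allows up to 3 reads, or at most 0.154 RPKM for Dnajb8, 0.104 for Dnajc22 and 0.0976 for Dnajc5g. The summed RPKM of all members in brains 1, 2 and 3 was 2705, 2932 and 3008 for ULAs and 2635, 2968 and 2942 for DLAs. It was lowest in brain 1 in both layers, and the layer means (2881 ± 158 and 2849 ± 185, SD, n = 3) differed by less than this spread.

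**Figure D1:**
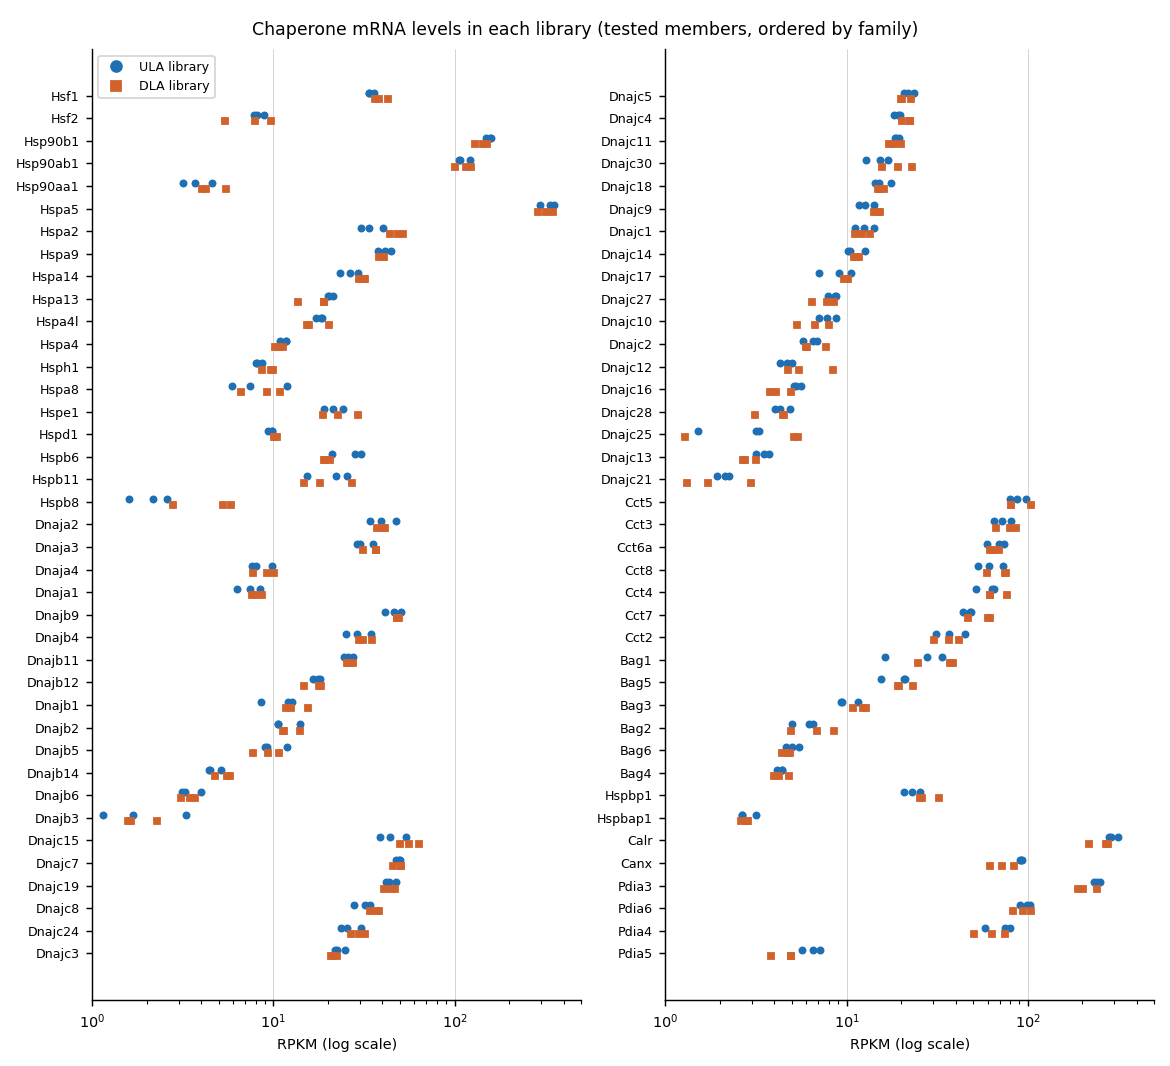
RPKM on a log scale of the 78 members with a mean RPKM of at least 1, by family, with 1 point per library (circles, 3 ULA libraries; squares, 3 DLA libraries). The ER proteins Hspa5, Calr, Pdia3 and Hsp90b1 stand farthest to the right with the cytosolic Hsp90ab1, and for most members the points of the 2 layers intermingle.

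The 4 members with the highest listed RPKM encode proteins of the ER lumen. Hspa5, the ER HSP70 (BiP), stood in brains 1, 2 and 3 at 296, 352 and 336 RPKM for ULAs and 290, 349 and 319 RPKM for DLAs. Calr, the lectin chaperone calreticulin that binds calcium, stood at 283, 316 and 290 RPKM in ULAs and 217, 278 and 271 RPKM in DLAs. Pdia3, the disulfide isomerase that works with calreticulin and calnexin, was at 231, 250 and 241 RPKM in ULAs and 191, 201 and 242 RPKM in DLAs. Hsp90b1, the ER HSP90 (GRP94), followed at 155 ± 4.87 and 141 ± 11 RPKM (SD, n = 3). These 4 genes alone made up 31.4% to 36.7% of the summed RPKM of all members in a library. Among the 13999 rows whose mean reached 1 RPKM, Hspa5 ranked 179, Calr 217, Pdia3 272 and Hsp90b1 443.

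The cytosolic counterparts were lower. Hsp90ab1, the constitutive cytosolic HSP90, was the only cytosolic member with a mean above 100 RPKM, at 106, 107 and 122 in ULAs and 100.03, 123 and 115 in DLAs. Hsp90aa1, its stress-responsive paralogue, was at 3.18 to 5.51 RPKM, so that the level of Hsp90ab1 was 20.9 to 33.7 times that of Hsp90aa1 within a library. Hspa8, the constitutive cytosolic HSP70 (HSC70), was listed at only 5.88 to 11.9 RPKM, and the level of Hspa5 was 28.3 to 50.4 times that of Hspa8. Both low values carry a doubt about the counting. Among windows of 36 bases, the length of the reads, 78.2% of those in the Hspa8 mRNA and 61.6% of those in Hsp90aa1 also occur in another gene of the GENCODE annotation, chiefly processed pseudogenes, against 10.8% for Hsp90ab1 and 0% for Hspa5. How reads with several matches were treated is not given in the sources used here, so the listed levels of Hspa8 and Hsp90aa1 are uncertain.

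**Figure D2:**
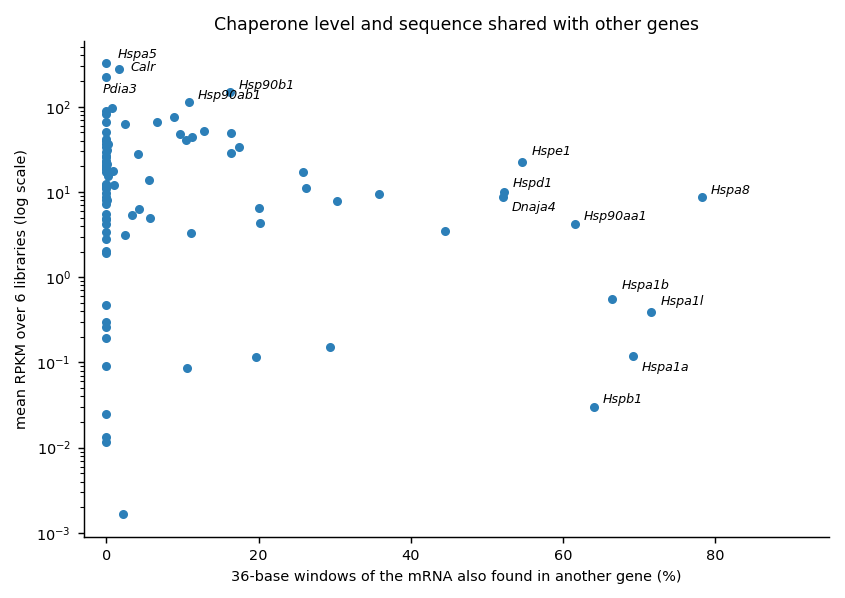
Mean RPKM over the 6 libraries (log scale) against the share of 36-base windows of each mRNA that also occur in another gene, for the members with a mean above 0 and a matched transcript. The 9 members drawn beyond 50% include Hspa8 and Hsp90aa1, and 4 of them (Hspa1a, Hspa1b, Hspa1l and Hspb1) lie under 1 RPKM, while 60 of the 93 drawn share under 5% of their windows.

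Comparing the layers asks which chaperones follow the laminar position of an astrocyte. The comparison used log2(RPKM + 1) in limma with brain and layer as terms, for the same 13999 rows, 78 of them members, and a gene passed at a Benjamini-Hochberg adjusted p under 0.05. Differences are upper minus deep, on the log2(RPKM + 1) scale, which understates the change of low genes. No member was called higher in ULAs and 1, Hspb8, was called higher in DLAs. Over all rows, 0.714% were called in favour of ULAs and 0.914% in favour of DLAs (100 and 128 rows, or 138 and 103 after quantile normalization), so a count of 0 or 1 among 78 members is near the background. At an unadjusted p under 0.05 the limma fit gave 4 members with more in ULAs and 7 with more in DLAs, against 5.64% and 10.8% of all rows. The libraries of the layers did not overlap for 7 members with more in ULAs (6.59% of all rows) and 8 with more in DLAs (9.27%). In all 3 brains, 13 members had more in ULAs (15.2% of all rows) and 21 had more in DLAs (23.2%).

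For 77 of the 78 tested members the difference was smaller than 0.5 on the log2 scale. The median was −0.01 over the members and −0.03 over all tested rows, and the median size of a member's difference was close to that of all rows (0.12 and 0.14). The 95% interval of the difference lay within 1 of 0 for 77 members and within 0.5 of 0 for 60, and it reached past 1 for Hspb8 alone.

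**Figure D3:**
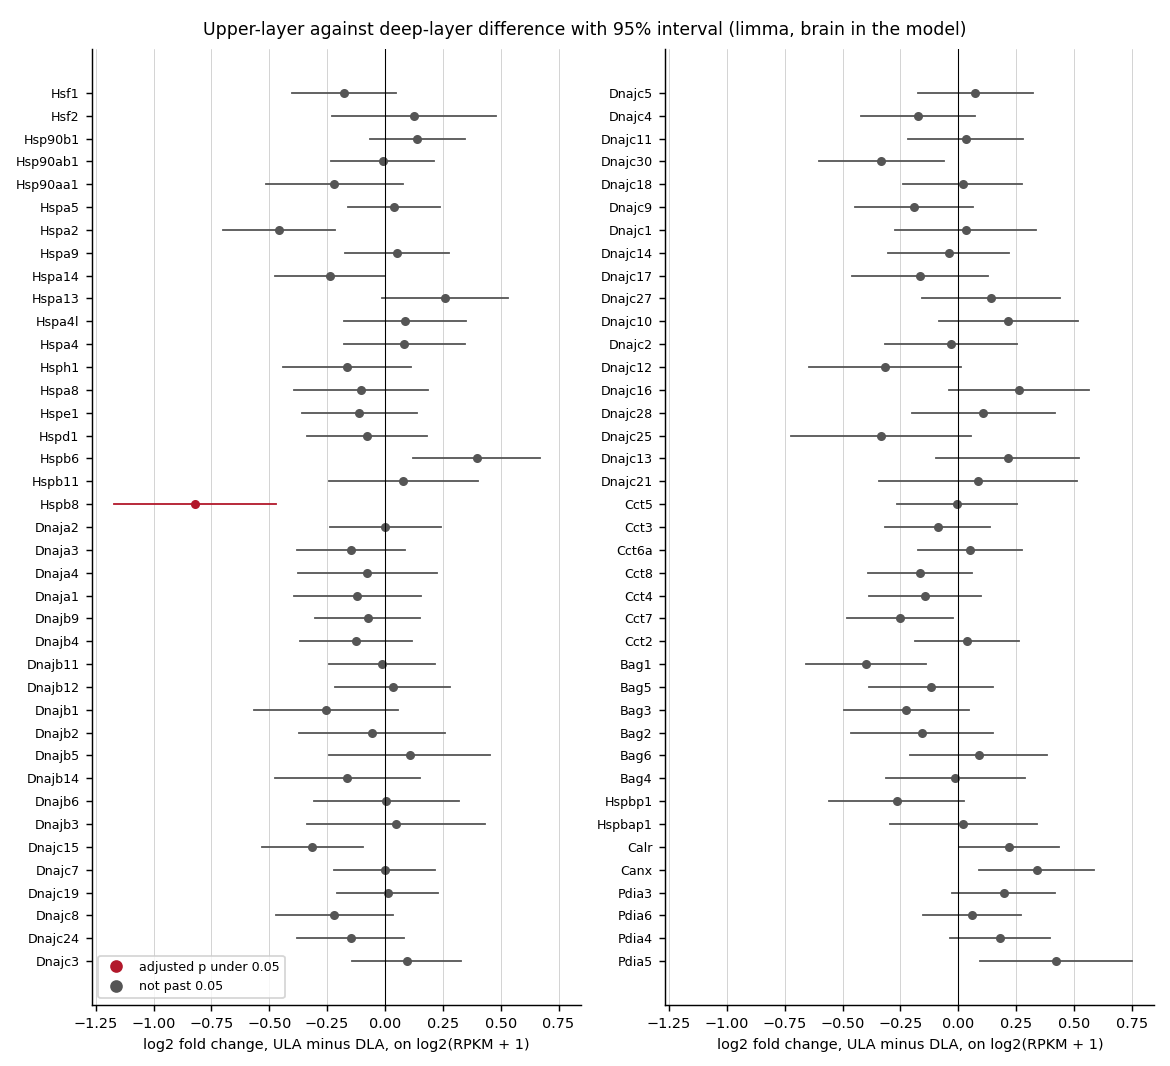
Difference between ULAs and DLAs of the 78 tested members on the log2(RPKM + 1) scale, with 95% intervals from limma with brain in the model. Hspb8 (red) is the 1 member past an adjusted p of 0.05, and the intervals of most others include 0.

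Hspb8 encodes a small heat shock protein that, with its partner BAG3 and HSP70, routes misfolded proteins to autophagy. In brains 1, 2 and 3 it was at 1.6, 2.17 and 2.58 RPKM for ULAs and 2.79, 5.86 and 5.26 RPKM for DLAs, values that rest on 71 to 125 and 135 to 282 reads. The DLA library was the higher one in 3 of 3 brains and the layers did not overlap, although the highest ULA value (brain 3) and the lowest DLA value (brain 1) were close. The mean RPKM was 2.19-fold higher in DLAs, and the log2 difference was −0.82 ± 0.16 (SE, limma adjusted p = 0.0310). With a mean of 3.38 RPKM, Hspb8 was not tested in the setting that required a mean of at least 5 RPKM. Over the other alternative settings the adjusted p ranged from 0.00427 to 0.406. It missed the threshold without brain 2 (0.0880), without the brain term (0.324), with no filter on low values (0.406) and with a correction for mRNA length (0.0677). The markers of oligodendrocytes and red blood cells were also higher in DLAs, and their part in the Hspb8 difference was not tested. In bulk RNA, fewer cells of a type and less RNA per cell cannot be told apart.

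The deposited coordinates, on mm9 per the submitters' notes, place Hspb8 on the minus strand at chr5:116858504-116872873, in 3 exons that make an mRNA of 1812 bases. Its promoter in the RefSeq table of GRCm38.p6 is shown because Hspb8 was the 1 member that passed. The line holds 140 bases of the minus strand of chr5:116422845-116422984, from 120 bases before the annotated start, and the capitals mark a pair of inverted GAA units, the core of a heat shock element, which begins 2 bases after the start.
Hspb8: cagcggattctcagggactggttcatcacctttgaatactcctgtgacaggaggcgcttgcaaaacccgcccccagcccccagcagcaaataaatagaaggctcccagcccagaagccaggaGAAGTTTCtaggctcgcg
Such a pair, GAANNTTC or TTCNNGAA, each of which reads the same on both strands, is common. It was found in 15.1% of all 32851 promoters of 300 bases (250 before and 50 after the start) and in 22 of the 100 promoters of the 80 members that could be matched.

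No other small heat shock protein passed, nor did the partner of Hspb8. Bag3, which joins HSPB8 to HSP70, was at 9.38, 9.47 and 11.6 RPKM in ULAs and 10.9, 12.8 and 12.4 RPKM in DLAs. It was higher in the DLAs of each brain, with overlapping layers and a difference of −0.22 (limma adjusted p = 0.393). Hspb6 (HSP20), the Hspb member with the highest mean over all libraries, was at 28.2, 21.0 and 30.3 RPKM in ULAs and 20.6, 19.1 and 19.4 RPKM in DLAs. Its layers did not overlap, though the ULA of brain 2 was close to the DLA of brain 1, and the difference of 0.40 ± 0.12 did not pass (adjusted p = 0.155). Within a library the level of Hspb6 was 9.66 to 17.6 times that of Hspb8 in ULAs and 3.26 to 7.37 times in DLAs. Hspb11, which is also a part of the intraflagellar transport machinery, ranged from 14.8 to 27.4 RPKM with a difference of 0.08. Its DLA mean was slightly above that of Hspb6 (20.1 and 19.7 RPKM). It stood above Hspb6 in the ULA of brain 2 and the DLA of brain 3. Hspb1 (HSP27), well known from reactive astrocytes, was listed at no more than 0.07 RPKM, or 0 to 2 reads in a library. As 64.1% of its windows are shared, chiefly with a pseudogene, that level is uncertain too.

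Among the HSP70 members Hspa2 had the largest difference. Hspa2, first known from the testis and also made in other tissues, was at 30.3, 33.9 and 40.5 RPKM in ULAs and 43.9, 51.7 and 48.7 RPKM in DLAs. All 3 DLA libraries were above all 3 ULA libraries, with a mean 1.38-fold higher. The difference of −0.46 ± 0.11 missed the threshold (limma adjusted p = 0.0762). It passed when only rows with a mean of at least 5 RPKM were tested (0.0438) and without brain 3 (0.00415), and its adjusted p ranged up to 0.450 over the alternatives. None of the 36-base windows of Hspa2 occurs in another gene. Hspa9 (mortalin, the mitochondrial HSP70) was at 37.9 to 44.8 RPKM with a difference of 0.05, and Hspa13, a microsomal relative, was at 21.4, 20.1 and 20.4 RPKM in ULAs and 19.0, 13.8 and 19.0 RPKM in DLAs, a difference of 0.26 (adjusted p = 0.323) with layers that did not overlap.

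**Figure D4:**
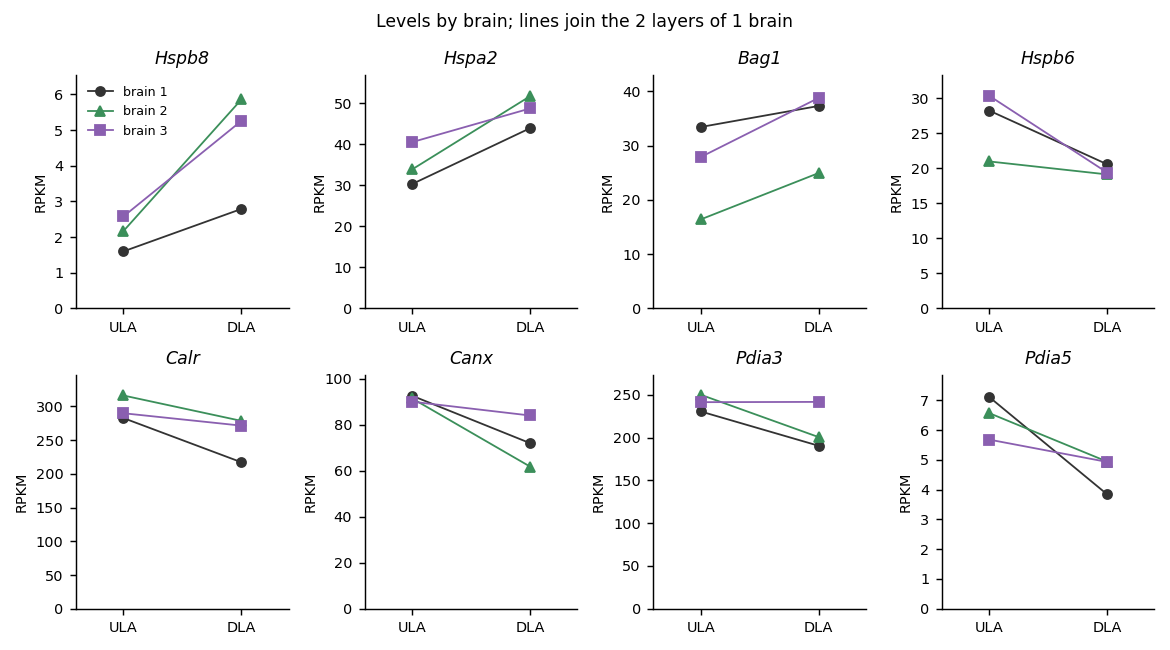
RPKM of 8 members in the ULAs and DLAs of each brain, on axes that start at 0, with lines joining the layers of a brain. Hspb8, Hspa2 and Bag1 are higher in the DLAs of all 3 brains, Hspb6, Calr, Canx and Pdia5 in the ULAs of all 3, and Pdia3 in the ULAs of brains 1 and 2 only.

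Of the 12 members listed as ER chaperones, all of which were tested, none passed in either direction. This is a chosen list. It does not hold Hspa13 or Dnajc16, described here as a microsomal and an ER membrane protein, nor the disulfide isomerase Pdia2, which was too low to be tested. The counts and medians below hold for this list, and other choices were not tested. There were 10 positive and 2 negative differences, with a median of 0.16 beside −0.03 over all rows, of which 45% were positive. The median stayed between 0.12 and 0.23 over the alternatives, with 9 to 12 positive members. In all 3 brains, 8 members were higher in ULAs, against 15.2% of all rows, and none was higher in DLAs, against 23.2%. The ER chaperones made up 48.9%, 50.1% and 45.9% of the summed member RPKM in ULAs and 43.7%, 44.7% and 44.6% in DLAs, so that every ULA library was above every DLA library.

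Canx, the membrane-bound lectin chaperone calnexin, was at 92.7, 91.5 and 90.1 RPKM in ULAs and 72.1, 61.9 and 84.1 RPKM in DLAs. The ULA values were nearly alike and all above the DLA values, which spread more. The difference was 0.34 ± 0.11 (limma adjusted p = 0.176, and 0.0154 without brain 3). Pdia5, a less abundant disulfide isomerase, was at 7.11, 6.57 and 5.68 RPKM in ULAs and 3.84, 4.94 and 4.93 RPKM in DLAs, without overlap, a difference of 0.42 ± 0.15 (adjusted p = 0.199, and 0.0453 without brain 3). For Calr, given above, the difference was 0.22 (adjusted p = 0.300), again without overlap. Hspa5, the target most used as a sign of the unfolded protein response, differed by 0.04 with an interval from −0.16 to 0.24 and a ULA value slightly above the DLA value in each brain. For the other disulfide isomerases the differences were 0.20 (Pdia3), 0.18 (Pdia4) and 0.06 (Pdia6), and for Hsp90b1 the difference was 0.14. Among the J-domain proteins of the ER, Dnajc10 differed by 0.22, Dnajc3 by 0.09, Dnajb11 by −0.01 and Dnajb9 by −0.07, and the smallest adjusted p among these was 0.457. Markers of microglia summed to 13.6 to 14.7 RPKM in ULAs and 9 to 12.1 RPKM in DLAs. Most of this was P2ry12, at 11.6 to 12.6 RPKM in ULAs and 7.76 to 10.2 RPKM in DLAs. The others were under 1 RPKM in every library, and C1qa and Itgam had the higher mean in DLAs. Of the mural cell markers, Rgs5 was called higher in ULAs. The more abundant Pdgfrb differed by 0.08 (limma adjusted p = 0.790), and Vtn and Kcnj8 had the higher mean in DLAs. Neither list moved in 1 direction as a whole. The part of these cells in the ER values was not tested. Of the 8 microglial markers, 1 reached the level needed for the test and it did not pass.

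In a RefSeq promoter of GRCm38.p6, 6 ER chaperones hold an ER stress element, CCAAT and CCACG with 9 bases between them on either strand, the site bound by ATF6 with NF-Y. They are shown because they hold the element, and these 6 include 4 of the 6 most abundant members. All 6 differences were positive, from 0.04 to 0.34, though that of Dnajc3 was −0.007 with the length correction. A positive difference was not particular to them. Of the ER chaperones outside these 6, Pdia3, Pdia4, Pdia5 and Dnajc10 were positive (0.20, 0.18, 0.42 and 0.22), and Dnajb11 and Dnajb9 negative (−0.01 and −0.07). A link between the element and the layer difference was not tested. The capitals mark the element with 15 bases on each side, read in the direction of the gene, and in Calr and at the second place in Hsp90b1 it lies in the reverse orientation. Counted from the annotated start, the element begins at −65 in Hspa5 (plus strand, chr2:34772010-34772058), −162 in Calr (minus strand, chr8:84847060-84847108), −145 in Canx (minus strand, chr11:50325785-50325833), −98 in Pdia6 (plus strand, chr12:17266476-17266524), −105 in Dnajc3 (plus strand, chr14:118937812-118937860) and −212 in Hsp90b1 (minus strand, chr10:86705518-86705671).
Hspa5: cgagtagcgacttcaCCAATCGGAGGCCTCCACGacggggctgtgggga
Calr: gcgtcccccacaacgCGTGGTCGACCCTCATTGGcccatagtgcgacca
Canx: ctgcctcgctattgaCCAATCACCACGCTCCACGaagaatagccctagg
Pdia6: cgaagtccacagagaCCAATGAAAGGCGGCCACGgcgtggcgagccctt
Dnajc3: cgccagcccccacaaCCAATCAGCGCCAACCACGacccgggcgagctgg
Hsp90b1: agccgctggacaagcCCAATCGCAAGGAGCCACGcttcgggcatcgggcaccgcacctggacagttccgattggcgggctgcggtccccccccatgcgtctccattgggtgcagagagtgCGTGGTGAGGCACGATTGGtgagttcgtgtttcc
The element was found in 6 of the 100 member promoters and in 0.119% of all promoters of this length. A match of letters is a description and not a measured binding site.

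The genes known to be raised by HSF1 were compared as a list of 12, of which 9 were tested. None passed, 8 of the 9 differences were negative, and the median was −0.11 (−0.14 to −0.06 over the alternatives), beside −0.03 over all rows, of which 55% were negative. Hsf1 itself, the master regulator of the heat shock response, was at 33.8, 36.0 and 33.8 RPKM in ULAs and 36.6, 43.0 and 38.2 RPKM in DLAs. Every DLA library was above every ULA library, and the difference of −0.18 ± 0.10 did not pass (limma adjusted p = 0.411). Hsf2, which is linked more to development, was at 5.40 to 9.74 RPKM, so that Hsf1 mRNA was 3.81 to 7.96 times as abundant, and its difference was 0.13 (adjusted p = 0.740).

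The classical inducible HSP70 genes were listed at under 1 RPKM in every library. Hspa1b was at 0.58, 0.76 and 0.70 RPKM in ULAs and 0.26, 0.45 and 0.55 RPKM in DLAs, or 20 to 55 reads, and Hspa1a at 0.01 to 0.23 RPKM, or 1 to 18 reads. Both were listed higher in all ULA libraries than in all DLA libraries, but neither reached the level needed for the test. The separation was slight. For Hspa1a the ULA and DLA of brain 1 were at 0.12 and 0.11 RPKM, on 9 reads each. For Hspa1b the ULA of brain 1 and the DLA of brain 3 were at 0.58 and 0.55 RPKM. Of the windows of Hspa1a, 62.4% also occur in Hspa1b, so reads of the pair cannot be told apart over most of the mRNA. Immediate early genes, which respond to tissue dissociation, summed to 65.7, 124 and 95.04 RPKM in ULAs and 88.1, 135 and 80.8 RPKM in DLAs, and none of the 8 that were tested passed, while Fosb was listed at 0 throughout. None of the other members of the list passed. Hsph1, an HSP110 exchange factor, differed by −0.16, Dnajb1, the J-domain partner of inducible HSP70, by −0.25, Hsp90aa1 by −0.22, Hspa8 by −0.11, Hspe1 by −0.11, Hspd1 by −0.08, Hsp90ab1 by −0.01 and Hspa4l by 0.09. The smallest adjusted p among these 8 was 0.398.

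A run of 3 alternating units (GAA, TTC and GAA, or TTC, GAA and TTC, with 2 bases between units) contains the pairs named above and was found in promoters of 4 members, Hspd1, Hspe1, Dnajb6 and Hsph1, which hold 6 of the 100 member promoters, and in 0.603% of all promoters. Hspd1 (HSP60) and Hspe1 (HSP10), the 2 parts of the mitochondrial folding chamber, share 1 window, chr1:55088044-55088091 in GRCm38.p6, between their divergent starts, and it is shown for each gene in its own direction. Its first unit begins at −144 from the start of Hspd1 and at −89 from that of Hspe1. The window of Dnajb6, a J-domain protein that holds back aggregation, is from the plus strand of chr5:29735837-29735879, with the units beginning at −46 from 1 of its 2 annotated starts. Capitals mark the units.
Hspd1: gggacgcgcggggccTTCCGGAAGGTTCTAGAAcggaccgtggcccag
Hspe1: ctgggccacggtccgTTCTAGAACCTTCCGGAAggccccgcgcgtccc
Dnajb6: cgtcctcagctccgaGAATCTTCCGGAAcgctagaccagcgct
The mRNAs of the pair were listed at different levels. Hspe1 was at 21.2, 19.2 and 24.3 RPKM in ULAs and 22.6, 18.9 and 29.4 RPKM in DLAs, and Hspd1 at 9.34 to 9.82 RPKM in ULAs and 10.1 to 10.5 RPKM in DLAs, so that the level of Hspe1 was 1.8 to 2.89 times that of Hspd1. Over 50% of the windows of each mRNA occur elsewhere in the genome's transcripts (52.2% and 54.7%), which limits this ratio. Dnajb6 was at 3.11 to 3.98 RPKM with a difference of 0.01.

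The 6 mitochondrial chaperones had a median difference of −0.09, with 2 positive and 4 negative, and none passed. Over the alternatives the median lay between −0.10 and −0.03. Dnajc15, a J-domain protein of the inner membrane import motor, was at 38.9, 44.1 and 53.9 RPKM in ULAs and 49.98, 56.3 and 64.1 RPKM in DLAs. It was higher in the DLAs of each brain while the layers overlapped, a difference of −0.32 ± 0.10 (limma adjusted p = 0.155). Its paralogue Dnajc19 was at 40.8 to 47.4 RPKM with a difference of 0.01, and Dnaja3, which serves mortalin, differed by −0.15.

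The CCT ring, which folds actin and tubulin, took 14.3% to 17.2% of the summed member RPKM. Cct5 was the most abundant subunit at 79.5 to 104 RPKM, followed by Cct3, Cct6a, Cct8, Cct4, Cct7 and Cct2, the last at 30.6 to 44.9 RPKM. Although the ring holds its subunits in equal number, the highest of these 7 mRNAs was 1.92 to 2.84 times the lowest within a library. The means of Cct6a, Cct8 and Cct4 (60.2 to 67.7 RPKM in ULAs and 65.1 to 70.01 RPKM in DLAs) stood in a different order in each layer, so these neighbours cannot be ranked. The testis form Cct6b was at 0.83, 0.70 and 0.50 RPKM in ULAs and 0.50, 0.22 and 0.09 RPKM in DLAs and was not tested. None of the 7 tested subunits passed, with 2 positive and 5 negative differences and a median of −0.09. The median was −0.15 without brain 3 and −0.01 without brain 2, where it lay above the median of all rows (−0.04). Cct7 had the largest, −0.25 (limma adjusted p = 0.260), at 43.7, 48.0 and 48.7 RPKM in ULAs and 46.9, 61.8 and 60.3 RPKM in DLAs.

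The J-domain families held 45 members, of which 38 were tested and none passed. The median difference was −0.10 for the 4 Dnaja genes, −0.04 for the 10 tested Dnajb genes (range −0.25 to 0.11) and 0.01 for the 24 tested Dnajc genes (range −0.33 to 0.26). In each library the Dnajc genes took 13.7% to 15.8% of the summed member RPKM, the Dnajb genes 5.46% to 6.34% and the Dnaja genes 2.85% to 3.36%. By the mean over all libraries, the highest of each family were Dnaja2, a cytosolic partner of HSC70, at 34.1 to 47.3 RPKM with a difference of 0.00, Dnajb9 at 41.6 to 50.5 RPKM and Dnajc15, both given above. Among the Dnajc genes the order turned with the layer. Dnajc7 had the higher mean in ULAs (48.9 RPKM, against 45.6 for Dnajc15) and Dnajc15 in DLAs (56.8 RPKM, against 49.0 for Dnajc7). Dnajc16, an ER membrane protein, was at 5.23, 5.59 and 5.10 RPKM in ULAs and 4.93, 4.10 and 3.79 RPKM in DLAs, without overlap, a difference of 0.26 (limma adjusted p = 0.369). Dnajc12, a partner of the aromatic amino acid hydroxylases, was at 4.27, 4.71 and 4.98 RPKM in ULAs and 4.73, 5.50 and 8.37 RPKM in DLAs, a difference of −0.32 (adjusted p = 0.318) that was largest in brain 3. Dnajc30, a mitochondrial protein, was at 12.8, 15.3 and 17.0 RPKM in ULAs and 15.7, 23.1 and 19.2 RPKM in DLAs, a difference of −0.33 (adjusted p = 0.216). It shares 143 exon bases with Wbscr22 on the opposite strand, and without strand in the library kit their reads cannot be told apart there. In all, 20 members share exon bases with another row, and for 9 of them the shared part is over 10% of the mRNA.

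Each brain gave a library of each layer, so a member that varies between animals in both layers could be told from one that varies with the layer. Bag1 and Dnajc25, 2 of the 78 members, differed between brains in the same limma fit (moderated F-test, adjusted p = 0.0289 and 0.0285), while 2.85% of all rows did. Bag1, an exchange factor that ties HSP70 to the proteasome, was at 33.4, 16.4 and 27.9 RPKM in ULAs and 37.3, 24.95 and 38.8 RPKM in DLAs. It was lowest in brain 2 in both layers, with brain means of 35.4, 20.7 and 33.3 RPKM, and higher in the DLAs of each brain, a layer difference of −0.40 ± 0.12 that did not pass (adjusted p = 0.134). The 6 Bag genes together summed to 72.9, 62.2 and 76.2 RPKM in ULAs and 81.7, 78.5 and 86.5 RPKM in DLAs, with no overlap between the summed levels of the layers. There were 1 positive and 5 negative differences, where 55% of all rows were negative. None of the 6 passed, and the layers overlapped for each of them. Much of the gap in the sum (means of 70.4 and 82.2 RPKM) was that of Bag1 (25.9 and 33.7 RPKM). Dnajc25, a J-domain protein, was at 3.15, 1.51 and 3.27 RPKM in ULAs and 5.12, 1.28 and 5.38 RPKM in DLAs. In brain 2 it stood at under 50% of its level in the other brains, a range of 3.10-fold between brain means, on 46 to 291 reads a library.

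Hspa8, Pdia4 and Hspb11 came next in the comparison of brains and did not pass (adjusted p = 0.0662, 0.0971 and 0.139), although Hspa8 did when only rows with a mean of at least 5 RPKM were tested and, with Hspb11, without brain 2. Hspb11 also passed without brain 3. As a mean of both layers Hspa8 was at 6.26, 8.31 and 11.4 RPKM in brains 1, 2 and 3, a 1.82-fold range, and was higher in ULAs in 1 brain and in DLAs in 2. Pdia4 was lowest in brain 3, at 58.0 RPKM in ULAs and 50.3 RPKM in DLAs. For 43 of the 78 tested members the p for brain was lower than the p for layer (55.1%, against 49.1% of all tested rows). Brain, animal and preparation cannot be told apart here, and the calls depend on the setting, as described with the alternatives.

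Related genes outside the naming rule were read for the same contrast. None of the 17 tested cytosolic co-chaperones, 5 prefoldin subunits, 22 genes of ER folding and the unfolded protein response and 9 mitochondrial folding genes passed in either direction. The ER genes had 15 positive and 7 negative differences with a median of 0.11, with single genes from −0.26 to 0.47. The median was 0.06 without brain 1, and 0.05 with 7 positive and 7 negative when a mean of at least 5 RPKM was required. In each of these fits this list and the ER chaperones lay on the same side of the median of all rows. The cytosolic co-chaperones (2 positive, 15 negative, median −0.11), the prefoldin subunits, which hand clients to the CCT ring (5 negative, median −0.22), and the mitochondrial genes (2 positive, 7 negative, median −0.09) lay on the other side. Leaving out a brain moved these medians to between −0.10 and −0.20, −0.10 and −0.27, and −0.07 and −0.21. Quantile normalization brought them to −0.013 (6 positive, 11 negative), −0.14 and −0.012, beside 0.002 over all rows. The length correction gave −0.06, −0.14 and −0.08, beside −0.03. The offsets of the co-chaperones and the mitochondrial genes thus depended on the scaling. Calls appeared under some settings. Cryab (alpha B-crystallin), a small heat shock protein that the naming rule does not take and that is named here for its values, was at 52.3, 65.3 and 75.02 RPKM in ULAs and 82.5, 101 and 87.9 RPKM in DLAs, above Hspb6 in every library. Its difference of −0.50 ± 0.11 did not pass (limma adjusted p = 0.0624), and it passed at a mean of at least 5 RPKM (0.0334) and without brain 3 (5.8e-04). Without brain 3, Fkbp4, Hsbp1 and the mitochondrial Clpp also passed, each higher in DLAs. Oligodendrocyte and red blood cell markers were higher in DLAs too, and their part in the values of Cryab and these lists was not tested. These are descriptions of lists in the same 6 libraries, without a test of the lists.

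**Figure D5:**
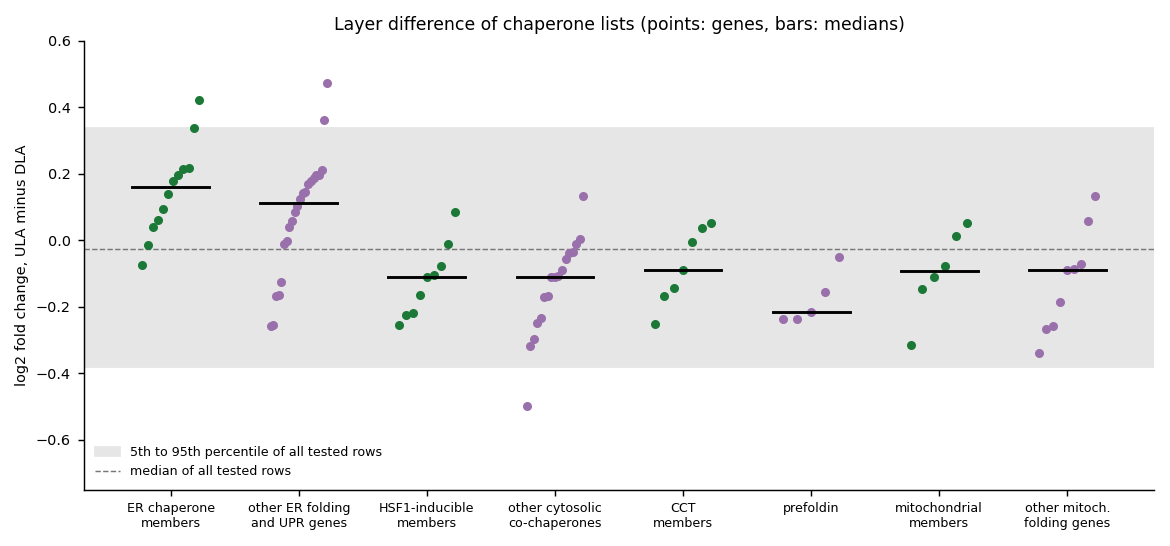
Differences between ULAs and DLAs on the log2(RPKM + 1) scale for 4 lists of members (green) and 4 lists of related genes (purple), with 1 point per gene and a bar at each median. The grey band holds the middle 90% of all tested rows and the dashed line is their median (−0.03), and nearly all points lie in the band, with the 2 ER lists centred above the line and the other 6 below it.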

How the data were processed

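RNA of sorted ULAs and DLAs was turned into cDNA with SMART-Seq v4 reagents and into libraries with Nextera XT and sequenced as single reads of 36 bases on an Illumina HiSeq instrument. The deposited values are RPKM (reads scaled to mRNA length and library depth), truncated by the authors to 2 decimals. The submitters' processing notes name bcl2fastq 1.8.4, CASAVA 1.8.2 and the build mm9, and the aligner, the counting program and the treatment of reads with several matches are not given in the sources used here. Depth was recovered from the steps between low RPKM values of mRNAs no longer than 500 bases, where 99.5% to 99.8% of values came out as whole reads, and it was used for precision only.

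The members and all gene lists were chosen with earlier results of these data known, and no list is independent evidence. Members were found by a pattern on gene symbols. Those named are the members past the threshold, the 5 largest differences in each direction (mean of at least 5 RPKM in the higher layer and 1 direction in 3 brains), the most abundant of each family, all members of the 4 functional lists, Hsf1, Hsf2 and the 5 with the lowest p for brain. The 3 members at 0 and Hspbp1, Hspbap1, Hspa1l, Dnajb6, Dnajc7, Pdia2, Tcp1, Cryab, Fkbp4, Hsbp1, Clpp, Rgs5, Pdgfrb, Vtn, Kcnj8, P2ry12, C1qa and Itgam are named outside this rule, having been seen first.

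The 13999 rows whose mean RPKM was at least 1 were tested on log2(RPKM + 1) with limma 3.58.1 in R 4.3.3 (lmFit, eBayes with trend), with terms for layer and brain. Tests were 2-sided, with Benjamini-Hochberg adjusted p-values over all rows. The labels number the libraries 1 to 3 in each layer and the study pairs the layers within brains. Deviations from the layer mean correlated across genes between libraries of 1 number (Pearson's r = 0.42, 0.33 and 0.34). The negative values between different numbers (−0.20 to −0.16) follow from subtracting the layer mean and are no separate evidence. The number was taken as the brain, though a preparation shared by libraries of 1 number could give the same correlation. Alternatives were no brain term, a pseudocount of 0.1, no filter, a mean of at least 5 RPKM, quantile normalization, median centring, a length correction (loess, span 0.5), no variance trend and the fit with 1 brain left out.

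Promoters were taken from the RefSeq table of GRCm38.p6, which matched 80 of 97 members by symbol, and shared windows from the GENCODE transcripts of the same build (96 of 97). No coordinate was carried between builds. Tables were handled with pandas 2.3.3 and numpy 2.4.6 (Python 3.11.15) and plotted with matplotlib 3.10.9.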

Additional observations from a re-analysis of the deposited data

How the results depend on the processing

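The 95% intervals of 60 of 78 tested members lie within 0.5 of 0 on the log2 scale and those of the others reach past it, and the fewest reads lie behind the DLAs of brain 2. The number of members called higher in DLAs was 1 and became 0 without the brain as a block, 0 with no filter and 0 with the length correction. The 1 called at a mean of at least 5 RPKM was Hspa2, and Hspb8 was not tested there. Leaving out 1 brain gave 0 to 2 members higher in DLAs (0 without brain 2, Hspa2 and Hspb8 without brain 3) and 0 to 2 higher in ULAs (Canx and Pdia5 without brain 3). The median difference of the members, −0.01, ranged from −0.0692 (without brain 3) to 0.000983 (without brain 1) when a brain was left out, and reached 0.02 after quantile normalization. Of the 2 members that differed between brains, 0 remained with no filter, 1 (Bag1) with the length correction and 1 (Dnajc25) without the variance trend, and leaving out a brain gave 2 to 3, which without brain 2 were Hspa8 and Hspb11. Without brain 3 they were Bag1, Dnajc25 and Hspb11. At a mean of at least 5 RPKM they were Bag1 and Hspa8. The model without the replicate block gave 23 rows higher in ULAs and 18 higher in DLAs over the whole table, against 100 and 128 with the block, and it has no term for brain. Over all rows no filter gave 0 and 0 calls, quantile normalization 138 and 103, the length correction 73 and 85, no variance trend 65 and 79, and leaving out brain 3 gave 426 and 687. For 45 named members and 11 alternatives, 483 of 491 values kept their side of the threshold and their direction within the error, 4 lost the call (all of Hspb8) and 4 gained one (Hspa2 in 2, Canx and Pdia5 in 1 each). No call was turned, and 19 values within 1 SE of 0 changed sign. The cause of these changes was not tested.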
